A study of Mus musculus with 6 samples.

Results

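The genes described here are 8 genes grouped as Notch targets, the Hes genes Hes1, Hes5 and Hes6, the Hey genes Hey1, Hey2 and Heyl, and the feedback genes Nrarp and Dtx1. They were taken as every probe that carries one of these names in the array design, which gave 1 probe for each gene, 8 of the 55681 probes and 8 of the 34964 gene and transcript names on the array. Two-colour Agilent arrays of mouse mammary cells were used, 6 in all, each with the sorted cells' RNA in Cy5 and a universal reference RNA, pooled from 11 mouse cell lines, in Cy3. Cells with the surface profile CD24+ CD29-high, which the labels call MaSC (mammary stem cells), came from virgin Dll1-mCherry reporter females on C57/B6 and were split by reporter into a Dll1-high and a Dll1-low fraction, 1 array each. F4/80+ macrophages came from the mammary glands of virgin C57/B6 females, either Dll1 conditional knockouts (KO, labelled cKO-Dll1) or their wild type littermates (WT), 2 arrays each. The reference RNA and the absence of a dye swap are shared by all 6 arrays, and neither the Cre driver of the conditional allele, the cells that lose Dll1, the animals' age nor the number of animals behind an array is given in the labels. The p-values below therefore measure the spread between these samples, which may be technical.

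Notch receptors are cleaved after they bind a Delta or Jagged ligand on a neighbouring cell, and the freed intracellular domain joins the DNA-binding protein Rbpj and Maml coactivators on target promoters. Hes and Hey genes, which encode basic helix-loop-helix repressors, include the best known direct targets. Nrarp limits the signal by acting on the intracellular domain itself, and Dtx1 encodes a Deltex E3 ubiquitin ligase that acts on Notch in the cytoplasm. Dll1 is a Delta ligand, so the study's pairs ask how these targets read in ligand-bearing mammary cells and in macrophages of KO and WT glands.

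The RBPJ core letters TGGGAA were looked for on both strands of the promoter windows of RefSeq (build GRCm38.p6, 250 bases before to 50 after a start site), which were matched for 5 of the 8 genes. The promoters of Hes1, Hey1 and Heyl were not analysed here. Hes5 and Hey2 each held 2 matches, 1 on each strand, and are shown because they were the members with the letters in their window. The Hes5 window is chr4:154960673-154960972 on the plus strand, with matches starting 226 and 82 bases before the start site, and the Hey2 window is chr10:30842734-30843033 on the minus strand, with matches starting 207 and 3 bases before it. Both are written 5′ to 3′ along the gene, and capitals mark the matches (TTCCCA is the other strand of TGGGAA).
Hes5: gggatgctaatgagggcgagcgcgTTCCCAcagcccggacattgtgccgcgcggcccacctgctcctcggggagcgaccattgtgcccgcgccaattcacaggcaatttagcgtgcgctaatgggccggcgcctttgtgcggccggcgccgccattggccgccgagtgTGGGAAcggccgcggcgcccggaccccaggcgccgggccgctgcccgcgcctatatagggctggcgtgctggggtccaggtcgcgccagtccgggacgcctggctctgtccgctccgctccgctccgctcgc
Hey2: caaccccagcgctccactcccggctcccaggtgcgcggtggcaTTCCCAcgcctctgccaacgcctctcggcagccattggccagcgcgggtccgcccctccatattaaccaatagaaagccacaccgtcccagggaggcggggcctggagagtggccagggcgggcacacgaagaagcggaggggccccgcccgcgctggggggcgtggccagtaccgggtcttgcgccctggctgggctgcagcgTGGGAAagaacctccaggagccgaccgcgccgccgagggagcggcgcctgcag
No match was found in the windows of Nrarp, Dtx1 and Hes6, the last of which has 2 windows. Of all 32851 mouse windows, 25.56% held the letters at least once and 3.79% held them 2 or more times. The N box letters CACNAG, to which Hes repressors are known to bind, occurred 2 times in the second Hes6 window, 2 times in the Nrarp window and 1 time in the Dtx1 window. Of all windows, 42.48% held them at least once and 11.26% held them 2 or more times. None of these windows held both motifs, and a match describes letters only.

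Dll1 itself read 3.94 (log2 ratio of the sample over the reference RNA) in Dll1-high and 3.26 in Dll1-low cells, 0.80 and 2.25 in KO macrophages and 0.78 and 3.24 in WT macrophages, so the KO arrays lay within the span of the WT arrays. The deleted part is not given in the labels, so this probe does not check the genotype. A second Dll1 probe stayed near 0 on the macrophage arrays and read 0.38 in Dll1-high and 0.24 in Dll1-low cells, -0.014 and 0.042 in KO and -0.034 and 0.018 in WT macrophages, so the level depends on the probe. Cy5 was well above background for 86.0% of spots on the Dll1-high and 88.1% on the Dll1-low array, and for 47.4% to 71.9% on the macrophage arrays. The labels were set against marker genes. The median log2 ratio of 10 basal epithelial markers was 4.52 in the Dll1-high fraction, 3.86 in the Dll1-low fraction and 0.29 to 0.63 on the macrophage arrays, and that of 14 macrophage markers was -0.44 and -0.28 in the fractions and 2.19 to 4.37 in macrophages. The KO replicates correlated at 0.713 over all probes and the WT replicates at 0.426. Across genotypes, the replicate 1 arrays correlated at 0.681 and the replicate 2 arrays at 0.944. WT replicate 1 stood apart in its markers. On WT replicate 1 the macrophage markers were the lowest of the 4 macrophage arrays at 2.19, and the fibroblast markers the highest of the 6 arrays at 0.54. The summed Cy5 intensity of the 14 macrophage markers was 161330 and 240210 in KO and 57898 and 170900 in WT, that of 11 fibroblast markers 49260 and 36487 in KO and 125669 and 28584 in WT, and that of 8 pericyte and smooth muscle markers 59480 and 41457 in KO and 362896 and 36906 in WT. WT replicate 1 thus had the lowest macrophage sum and the highest sums of both other lists. Among the macrophage arrays its epithelial sums were the highest too. They were 33747 for basal markers, against 10842 to 18451 on the others, and 54914 for luminal markers, against 22824 to 29742. Its basal median of 0.62 was close to the 0.63 of KO replicate 1. The median of the pericyte and smooth muscle list, however, was 0.49 on WT replicate 1 and 0.47 on WT replicate 2. In that list Mcam read 5.88 and 0.88 on these arrays, while Rgs5 read 1.00 and 2.56. The part of these lists in KO minus WT was not tested.

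The 8 probes are 60 bases long and lie on mm9 in the array's own annotation. Those of the Hes genes are at chr16:30067820-30067879 (Hes1, plus strand), chr4:154336347-154336406 (Hes5, plus) and chr1:93308264-93308323 (Hes6, minus). Those of the Hey genes are at chr3:8663432-8663491 (Hey1, minus), chr10:30552729-30552788 (Hey2, minus) and chr4:122926975-122927034 (Heyl, plus). The Nrarp probe is at chr2:25038038-25038097 (plus) and the Dtx1 probe at chr5:121130278-121130337 (minus). No mm9 annotation was used here, so exon and UTR positions are not stated.

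Of the 8 targets, 6 gave a Cy5 signal well above background, by the scanner software's own test, on all 6 arrays. Nrarp did so on 5, all but WT replicate 1, where its spot read 94 intensity units over a local background of 64. Hey2 did so on 1 array only, that of the Dll1-low cells: it read 100 over 77 in Dll1-high and 142 over 83.5 in Dll1-low cells, 78 and 69 over 73 and 66.5 in KO macrophages and 70 and 72 over 67 in WT macrophages. Hey2 was therefore at or near the detection limit in macrophages of both genotypes and was left out of both fits. The reference RNA was not well above background for Hey2 and Nrarp on any array, so their ratios rest on the Cy5 channel over a floor, and a ratio to the reference is compared here only within 1 probe. The plot of spot signal over background shows the room each probe had.

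**Figure D1:**
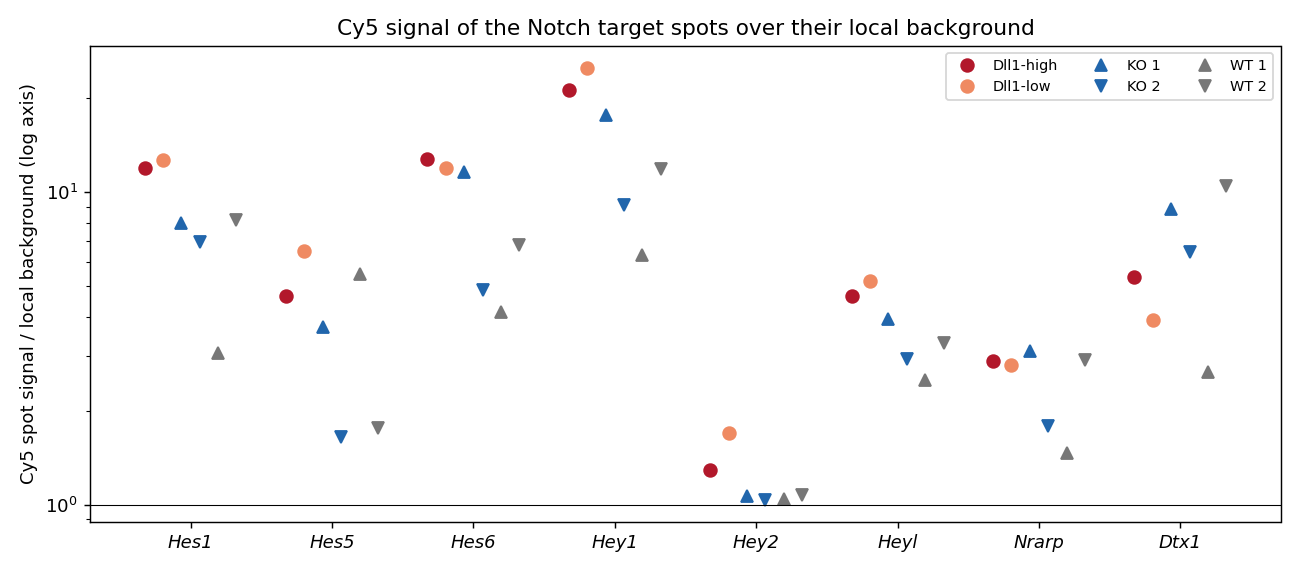
Cy5 spot signal divided by the local background (log axis, no unit) of the 8 Notch target probes on the 6 arrays, 1 point per array, with the line at 1 marking background. Hey2 lies close to the line on all arrays but that of the Dll1-low cells, and the other 7 probes lie above it on each array.

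Hes1, a repressor that Notch induces in many tissues, read -0.25 in Dll1-high and -0.31 in Dll1-low cells, 0.04 and 0.93 in KO macrophages and -0.42 and 1.01 in WT macrophages (log2 ratio to the reference, as for all levels below). Hes5, a second Notch-responsive repressor, read -0.05 in Dll1-high and -0.25 in Dll1-low cells, 0.82 and 0.18 in KO and 1.97 and -0.03 in WT macrophages. Hes6, a family member known in neural precursors to counteract Hes1, read -1.001 in Dll1-high and -1.078 in Dll1-low cells, -0.33 and -0.73 in KO and -0.37 and -0.70 in WT macrophages. The KO values of Hes1 and Hes5 lay inside the WT span, and the Hes6 values of the genotypes interleaved. In the macrophages Hes1 and Hes5 ran in opposite orders: WT replicate 1 was lowest for Hes1 and highest for Hes5.

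Hey1, a repressor with roles in vessel and heart development, read 0.77 in Dll1-high and 0.99 in Dll1-low cells, 0.84 and 0.94 in KO and 1.13 and 1.28 in WT macrophages. Heyl, its close relative, read 0.32 in Dll1-high and 0.29 in Dll1-low cells, 0.55 and 1.01 in KO and 0.37 and 1.17 in WT macrophages. Hey2, mostly below detection as above, stayed between -0.09 and 0.25 on the 6 arrays. Hey1 was the one member whose KO arrays were both below both WT arrays, and Heyl had the same array order as Hes1 in macrophages, highest on WT replicate 2 and lowest on WT replicate 1.

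Nrarp read 0.84 in Dll1-high and 0.80 in Dll1-low cells, 1.05 and 0.91 in KO and 0.26 and 1.60 in WT macrophages, the 0.26 being the array without detection. Dtx1 read 0.72 in Dll1-high and 0.60 in Dll1-low cells, 1.89 and 2.56 in KO and 0.40 and 2.94 in WT macrophages. Dtx1 spanned 2.54 over the 6 arrays, more than any other member, and WT replicate 1 was the macrophage array that lay below both CD24+ CD29-high fractions. Hes5 spanned 2.22, Hes1 1.43 and Nrarp 1.34, and the remaining members less than 1. The panels of log2 ratio by array show these patterns.

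**Figure D2:**
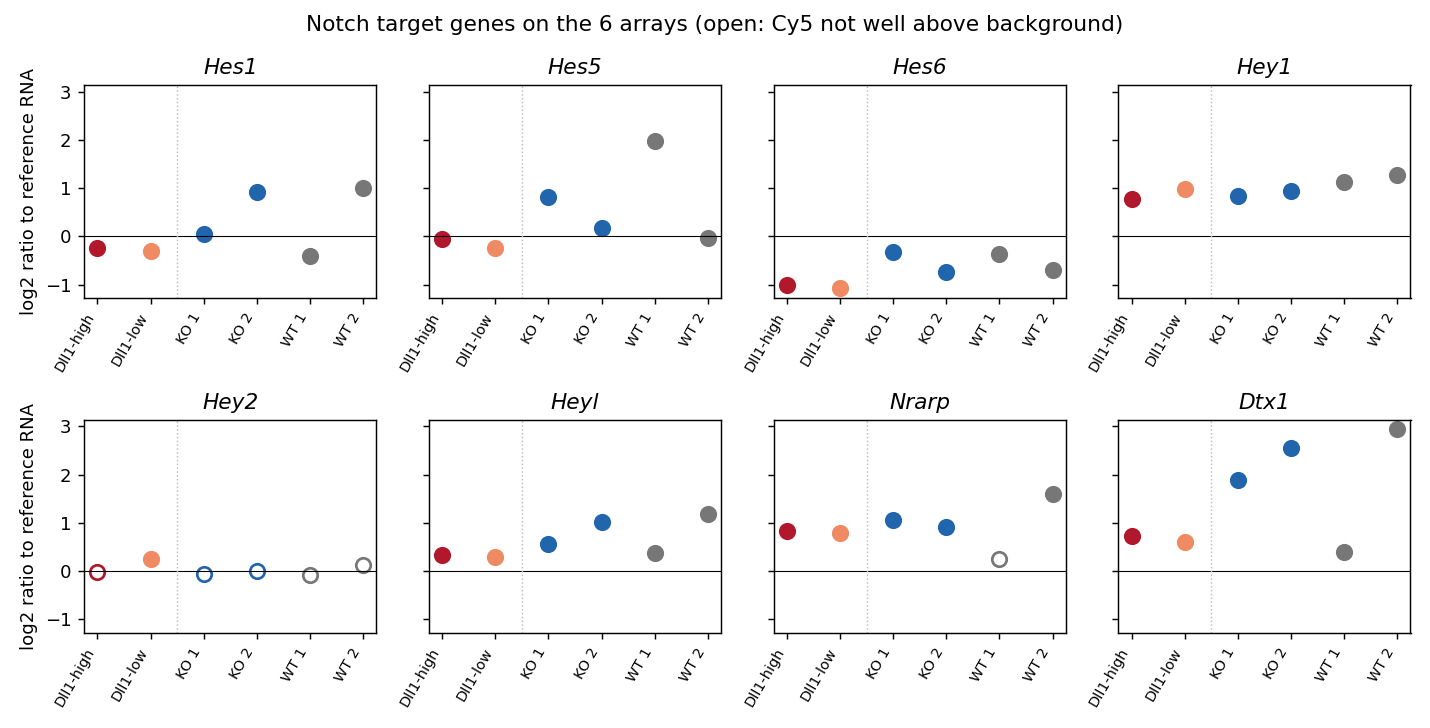
Log2 ratio to the reference RNA (vertical axis) of each Notch target on the 6 arrays (horizontal axis), 1 point per array, open where Cy5 was not well above background. The Dll1-high and Dll1-low points lie within 0.28 of each other in every panel, while WT replicates 1 and 2 lie 2.54 apart for Dtx1 (0.40 and 2.94).

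The Dll1-high fraction was first set against the Dll1-low fraction of the same gate, to see whether the targets differ with the reporter of the ligand. None of the 8 members was 2-fold apart, against 77 of 49638 probes of the whole array (0.155%), a count that was 2044 with the scanner software's processed signals and 2045 with the authors' deposited values. Hes5 was higher by 0.20, Dtx1 by 0.13, Hes6 by 0.08, Hes1 by 0.06, Nrarp by 0.04 and Heyl by 0.03 in Dll1-high cells (difference of log2 ratios, high minus low). Hey1 and Hey2 were on the other side, at -0.22 and -0.28. With processed signals, as with the authors' deposited values, Hey2 was at -0.68 and Nrarp at 0.32. Technical spread was of similar size: over 362 probes with 8 to 10 usable spots, the same difference had a median SD over spots of 0.117 and a 95th percentile of 0.255, a value that Hey2 exceeded and the other 7 members did not. The members' differences lay between the 13.1 percentile (Heyl) and the 79.9 percentile (Hey2) of the absolute difference of all probes, which had a median of 0.141.

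For Hey2, not well above background in Dll1-high and detected in Dll1-low cells, the Cy5 channel gave at least 1.22-fold more in the Dll1-low fraction, by the bright array's normalized Cy5 signal over the higher of the dim array's own signal and its lowest detected signal. That bound is open to dye bias, since no dyes were swapped. The dim array's own signal set it, so the bound is the plain difference of single arrays and allows for no measurement error. The split of 6 members higher and 2 lower in Dll1-high cells, against 44.8% of all probes higher, turned to 3 higher and 5 lower in the Cy5 channel alone, where Hes5 read -0.31 and Hes1 -0.13. Marker lists differed between the fractions too. Higher in Dll1-high cells were 1 of 11 fibroblast, 1 of 14 endothelial, 2 of 12 luminal and 6 of 10 basal epithelial markers. Their median differences were -0.56, -0.28, -0.30 and 0.11 in that order. Of the macrophage markers 5 of 14 were higher, with a median of -0.08. The part of these lists in the members' differences was not tested. With 1 array per fraction there is no replicate check and no test, and fewer expressing cells cannot be told apart from less RNA per cell in these bulk samples.

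In macrophages, KO was set against WT to ask whether the targets differ in glands of Dll1 conditional KO mice. No member passed limma's test (adjusted p 1.00 for each of the 7 tested). The background was no higher: 0 of 34570 probes passed the adjusted threshold of 0.05 (0%), and 49 had an unadjusted p below it (0.142%). Dtx1 averaged 2.22 ± 0.47 in KO and 1.67 ± 1.79 in WT macrophages (log2 ratio, SD, n = 2 each), a difference of 0.55 with a standard error of 0.95 and a 95% interval of -2.04 to 3.15. The spread of the 2 WT arrays was thus larger than the difference.

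Hes1 averaged 0.48 ± 0.63 in KO and 0.30 ± 1.01 in WT macrophages, a difference of 0.19 (95% interval -1.59 to 1.96). Hes5 averaged 0.50 ± 0.45 in KO and 0.97 ± 1.41 in WT macrophages, a difference of -0.47 (-2.60 to 1.65). In both genes the 2 WT arrays lay further apart than the genotypes' means. Hes6 was at 0.00 (-0.93 to 0.94) and its interval stayed within 2-fold, with means of -0.53 ± 0.28 in KO and -0.54 ± 0.24 in WT macrophages, but with median centring the difference was 0.92, where the median of all probes was 0.39. Heyl was at 0.01 (-1.17 to 1.19) and Nrarp at 0.05 (-1.45 to 1.55), both of them differences of KO minus WT with the 95% interval. The intervals of Dtx1, Hes1, Hes5, Heyl and Nrarp reach beyond 2-fold in both directions, so a difference of that size was not detectable with these arrays.

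Hey1 averaged 0.89 ± 0.07 in KO and 1.20 ± 0.10 in WT macrophages, a difference of -0.32 (standard error 0.30, 95% interval -1.13 to 0.50, limma unadjusted p 0.350). It was lower in KO in both rows of the slide and its groups did not overlap, but 12.9% of all tested probes had both KO arrays below both WT arrays and 20.2% were separated in one direction or the other. The groups overlapped with processed signals, at 0.62 and 1.05 in KO and 0.59 and 1.43 in WT macrophages. The order did not hold with median centring in place of loess, where Hey1 read 0.80 and 0.44 in KO and -0.56 and 0.74 in WT macrophages and the difference turned to 0.53. It also turned, to 0.23, in the Cy5 channel alone. All 14 endothelial markers were lower in KO as well (11 to 13 of 14 under the other scalings), with a median log2 ratio of 1.76 and 2.41 on the KO arrays and 3.16 and 3.39 on the WT arrays and a summed Cy5 intensity of 25555 and 47258 in KO and 45418 and 103057 in WT. Of these 14, 12 to 14 were well above background on each macrophage array, and their part in the Hey1 values was not tested.

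The slide held replicate 1 of both genotypes in its first row and replicate 2 in its second, so KO and WT were also compared within rows, with 1 array each. In row 1, KO minus WT was 1.49 for Dtx1, 0.79 for Nrarp, 0.46 for Hes1, 0.18 for Heyl, 0.03 for Hes6, 0.03 for Hey2, -0.29 for Hey1 and -1.15 for Hes5. In row 2 it was -0.38 for Dtx1, -0.69 for Nrarp, -0.08 for Hes1, -0.16 for Heyl, -0.03 for Hes6, -0.12 for Hey2, -0.34 for Hey1 and 0.20 for Hes5. Thus 7 of 8 members had opposite signs in the rows, against 51.2% of all tested probes. The 7 include Hey2, which was not well above background in macrophages and not among the tested probes. They also include Hes6, whose row values were only 0.03 and -0.03. Hey1 was lower in KO in both rows, as were 29% of all tested probes. The large row 1 values involve WT replicate 1, where cell type markers differed too. In that row the macrophage markers had a median of 3.93 on the KO and 2.19 on the WT array and the lymphocyte markers one of 2.20 on the KO and 0.90 on the WT array, and their part in these differences was not tested.

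Without WT replicate 1, 5 members turned sign: Dtx1 to -0.71, Nrarp to -0.62, Hes1 to -0.53, Heyl to -0.39 and Hes5 to 0.52, none past limma's threshold (adjusted p 1.00). Without KO replicate 1, Hes6 turned to -0.19 and Nrarp to -0.02. Without KO replicate 2, Hes1 turned to -0.26 and Heyl to -0.22, and without WT replicate 2 Hes6 turned to -0.17. Each tested member but Hey1 thus changed sign when some single macrophage array was left out. The plot of differences sets the fits beside the row values.

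**Figure D3:**
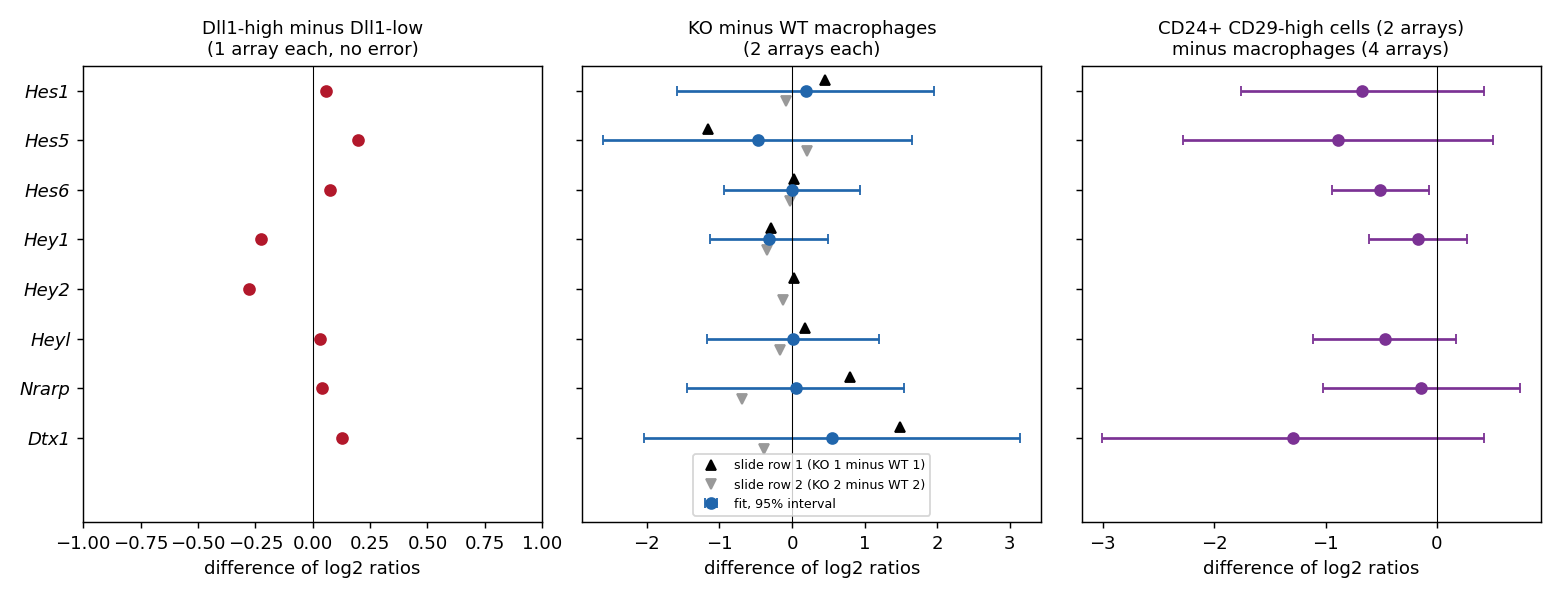
Differences of log2 ratios (horizontal axis) of the 8 Notch targets in 3 comparisons, with circles for the fitted or single-array difference, bars for the 95% interval of limma's fit and triangles for KO minus WT within each slide row. All KO minus WT intervals include 0, the row triangles of Dtx1 lie at 1.49 and -0.38, and of the CD24+ CD29-high intervals that of Hes6 (-0.94 to -0.07) leaves out 0 before adjustment.

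Both CD24+ CD29-high fractions together were then set against the 4 macrophage arrays. The fractions are not replicates of each other, and KO and WT macrophages were pooled. The SDs, intervals and p-values of this comparison treat each cell type as 1 group all the same. No member passed limma's threshold (0 of 7 tested), against 7.17% of all probes tested (3393 of 47322). All 7 were lower in the CD24+ CD29-high cells in value, except that Hey1 and Hes6 turned with median centring and Hey1 with processed signals, and their median difference was -0.51 against -0.03 over all probes. The 2 cell types lie on different slides, so slide and cell type cannot be told apart.

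Dtx1 averaged 0.66 ± 0.09 in CD24+ CD29-high cells (SD, n = 2, 1 array of each fraction) and 1.95 ± 1.12 in macrophages (n = 4, KO and WT together). The difference was -1.29 (95% interval -3.00 to 0.43, limma adjusted p 0.396). Without WT replicate 1 it was -1.80 and passed (limma adjusted p 0.0173), while the count of called probes over the array moved to 8401 of 46981. Whether Dtx1 passed thus turned on 1 array, and no other member passed under any of the settings tried.

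Hes6 averaged -1.04 ± 0.05 in CD24+ CD29-high cells and -0.53 ± 0.21 in macrophages, a difference of -0.51 (95% interval -0.94 to -0.07, unadjusted p 0.0298 and adjusted p 0.181 by limma). Hes5 differed by -0.89 (limma adjusted p 0.489), Hes1 by -0.67 (0.509) and Heyl by -0.47 (0.412), each in the same test. With processed signals and likewise the authors' deposited values, Hes5 was at -1.44 and Heyl at -1.004, again not past the threshold. For Hes5, Hes6 and Heyl both fractions lay below all 4 macrophage arrays, a pattern that 17.3% of all probes shared. It was lost with median centring for all 3, where WT replicate 1 was at -2.22 for Hes6 and 0.45 for Heyl and WT replicate 2 at -0.12 for Hes5.

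Hey1 averaged 0.88 ± 0.16 in CD24+ CD29-high cells and 1.05 ± 0.20 in macrophages, a difference of -0.17 (95% interval -0.61 to 0.27, limma adjusted p 0.722). Nrarp averaged 0.82 ± 0.03 in CD24+ CD29-high cells and 0.96 ± 0.55 in macrophages, a difference of -0.14 (-1.02 to 0.74, limma adjusted p 0.912), which was -1.35 with processed signals and with the authors' deposited values (adjusted p 0.564 and 0.556). Their fractions lay inside the macrophage span for Nrarp and partly below it for Hey1. Hey1 turned to 0.56 and Hes6 to 0.25 with median centring, and Hey1 to 0.029 with the scanner software's processed signals. For Hey2 no lower bound could be given, because its signal in Dll1-low cells was under the detection floor of the macrophage arrays.

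The levels of each member order the cell states as follows, from the group means. Dtx1, Hes1 and Nrarp were in the order KO, WT, CD24+ CD29-high, and Hes5 and Hey1 in the order WT, KO, CD24+ CD29-high, where for Hey1 the last 2 were 0.89 and 0.88. Heyl and Hes6 had KO and WT within 0.01 of each other and the CD24+ CD29-high cells lowest. KO and WT were not separated by limma for any of them, nor were CD24+ CD29-high cells and all macrophages, and the SD over the 4 macrophage arrays ran from 0.20 (Hey1) to 1.12 (Dtx1).

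Other genes of the pathway were compared by 7 lists of 87 genes (86 probes, since Aph1b and Aph1c share one): ligands, receptors, processing and sugar modification, nuclear complex and corepressors, inhibitors and turnover, other Hes family genes and other reported targets. In KO against WT macrophages none of the 80 probes tested passed limma's threshold, with 36 higher and 44 lower in KO in value. List medians ran from -0.26 for the other reported targets to 0.07 for the inhibitors, against 0.01 for the 7 members tested and -0.07 for all probes. The lowest and highest ligands were Dlk1 at -1.23 and Dll3 at 0.21, and the lowest and highest receptors Notch3 at -0.59 and Notch2 at 0.48 (KO minus WT, not called). Without WT replicate 1 they were -0.36 for Dlk1, 0.21 for Dll3, -0.20 for Notch3 and -0.020 for Notch2.

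Among the nuclear factors Tle3, a Groucho-type corepressor, was lowest at -2.06, with 1.25 and 1.39 on the KO and 5.46 and 1.31 on the WT arrays. Its 1 high array was again WT replicate 1, and KO minus WT was 0.08 in row 2. Rbpjl, a relative of Rbpj, was highest at 1.01, through KO replicate 1 (2.00, against -0.20 on KO replicate 2 and -0.05 and -0.17 in WT). In the other lists the lowest and highest were Neurl1b at -1.23 and Mib1 at 0.71, both ubiquitin ligases that act on Notch ligands, Numbl at -1.10 and Numb at 0.88, both endocytic adaptors, Hes7 at -0.56 and Bhlhe41 at 0.17, and Acta2 at -0.90 and Rgs5 at 0.56. Several of these also turned on WT replicate 1, which read 5.98 for Neurl1b against 0.91 on WT replicate 2. Without it KO minus WT was 1.30 for Neurl1b, -0.0099 for Mib1, 0.44 for Hes7, 0.21 for Acta2 and -0.22 for Rgs5, which all turned sign. Numbl at -0.80, Numb at 1.01 and Bhlhe41 at 0.20 kept theirs.

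Between the fractions, 1 of 84 compared pathway probes was 2-fold apart, against 77 of 49638 probes of the whole array (0.155%). The array count was 2044 with processed signals, and the pathway count was taken with loess ratios only. The 1 probe was that of Bmp2, a secreted growth factor and reported Notch target, at 0.93 in Dll1-high and 2.18 in Dll1-low cells (-1.25). Bmp2 also read 1.24 and 4.88 on the WT macrophage arrays. The list medians ran from -0.28 for the 4 receptors to 0.03 for the nuclear complex, against 0.05 for the 8 members and -0.03 for all probes. All 4 receptors were lower in Dll1-high cells in value (3 with the scanner's processed signals), from Notch3 at -0.40 to Notch2 at -0.07. Of all probes, 44.8% were higher in Dll1-high cells. Dll1, on whose reporter the cells were sorted, was higher by 0.68, and its second probe read 0.38 in Dll1-high and 0.24 in Dll1-low cells. The other extremes were Dner at -0.46 among ligands, Neurl1b at -0.67 and Mib1 at 0.26, Cir1 at -0.70 and Maml3 at 0.31, Bend6 at -0.36 and Numbl at 0.22, Hes7 at -0.30 and Bhlhe40 at 0.10, and Slit2 at 0.62.

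Between CD24+ CD29-high cells and macrophages, 8 of 82 pathway probes tested rose and 5 fell, against 3.49% and 3.68% of all probes. The lists were chosen with earlier results of these data known, and some genes, such as Acta2, are also cell type markers. The counts are therefore no test of the pathway. The split was 9 higher and 0 lower with median centring (19 and 4 at an unadjusted limma p under 0.05) and 6 higher and 1 lower with processed signals and with the authors' deposited values. Jag2, a Jagged ligand, rose by 2.68 (limma adjusted p 0.0227), with 3.29 in Dll1-high and 3.08 in Dll1-low cells and -0.20 to 1.10 in macrophages. Dtx2, a relative of Dtx1, fell by 1.65 (limma adjusted p 0.0113), with -0.45 in Dll1-high and -0.66 in Dll1-low cells and 0.83 to 1.40 in macrophages. Among the 4 testable other Hes family genes, the circadian and stress-responsive repressors Bhlhe40 and Bhlhe41 rose by 0.95 and 0.97 (limma adjusted p 0.0118 and 0.0171). Jag2, Dtx2, Bhlhe40 and Bhlhe41 did not pass with processed signals or the authors' deposited values, nor Dtx2 and Bhlhe40 with median centring, nor Bhlhe40 with Cy5 alone.

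The other 9 calls came from the list of other reported targets. The largest were Acta2, a smooth muscle actin and basal cell marker, which rose by 5.26 (limma adjusted p 0.00909), Snai2, a basal mammary transcription factor, by 3.46 (0.00312) and Sox4 by 2.29 (0.0106). Id2, an inhibitor of helix-loop-helix factors expressed in many leukocytes, fell by 3.22 (limma adjusted p 0.00215), Nrp1, a coreceptor, fell by 1.66 (0.00830) and Ccnd1, a cyclin, fell by 1.53 (0.00691). Gata3 and Sox9 also rose and Nfkb2 fell. Nrp1, Ccnd1 and Nfkb2 did not pass with processed signals, the authors' deposited values or median centring, nor Id2 with median centring. None of the 4 receptors, 18 processing genes or 19 nuclear factors tested passed. Without the Dll1-high array none of the 13 passed limma's threshold (11 pathway probes higher and 6 lower at an unadjusted p under 0.05) and without the Dll1-low array 1 did (Id2), with 13 of 13 of the same sign in both. Those fits hold 1 CD24+ CD29-high array, whose spread is taken from the macrophage arrays, and they called 272 and 436 probes over the whole array. Without WT replicate 1 all 13 passed, among 16 pathway probes higher and 12 lower. The plot of pathway lists shows the members beside the other lists.

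**Figure D4:**
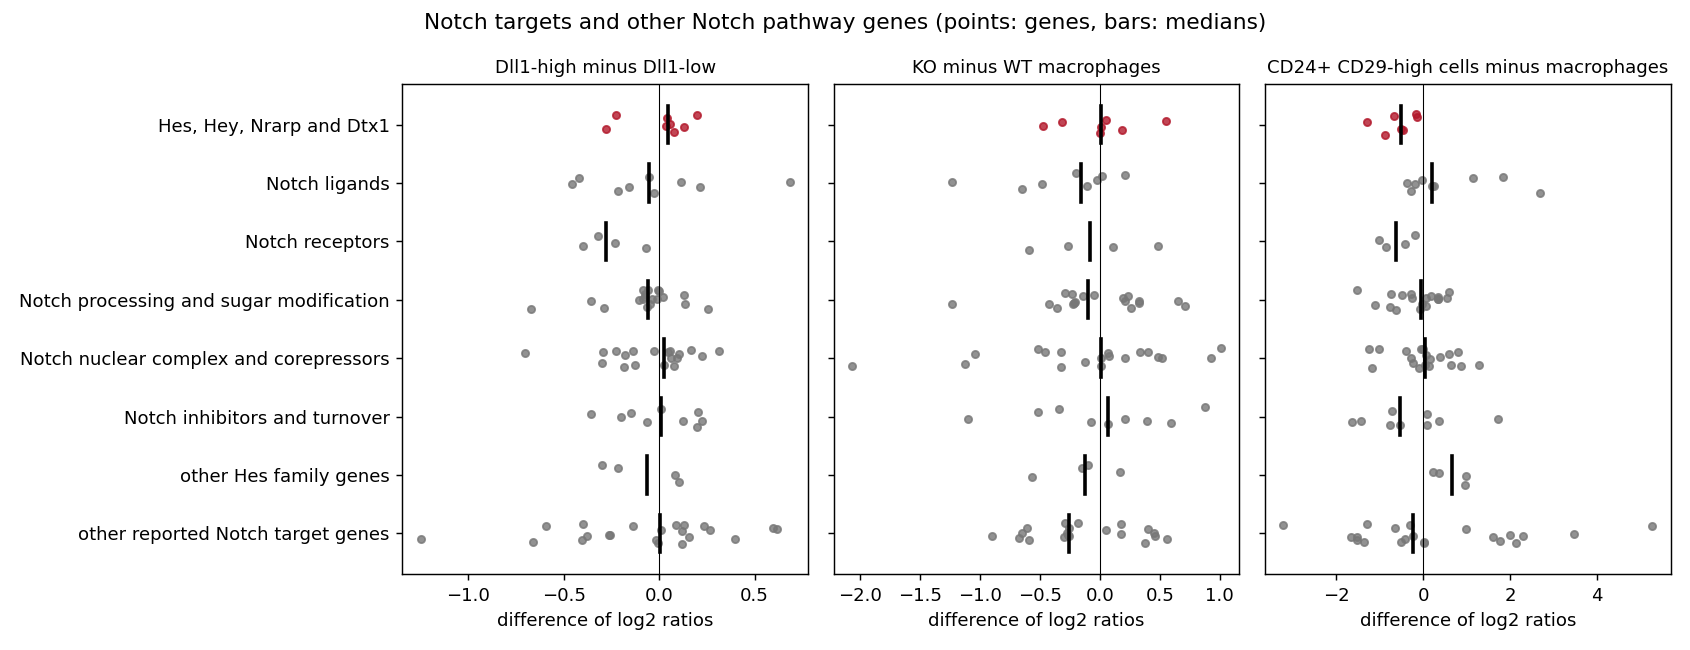
Differences of log2 ratios (horizontal axis) of the Notch targets (red) and 7 lists of other Notch pathway genes (grey) in 3 comparisons, 1 point per gene, with bars at list medians. The members lie between -0.28 and 0.20 for Dll1-high minus Dll1-low and between -1.29 and -0.14 for CD24+ CD29-high cells minus macrophages, where Acta2 reaches 5.26.

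Genes whose profile was most like a member's over the 6 arrays were searched for the 4 members that spanned at least 1, by the root mean square distance between log2 ratio profiles centred over the arrays, among 31054 genes. Hes1 was nearest to 5830415F09Rik (distance 0.05) and to a transcript with no gene symbol (0.06). Hes5 was nearest to U55650 (0.12) and to a probe with no gene symbol (0.13), Nrarp to Serpina3i (0.07) and Pabpc5 (0.09), and Dtx1 to Itprid2 (0.11) and Gm2701 (0.12). None of these is another member, and 6 arrays leave many profiles alike. For Dtx1, Itprid2 read 0.28 in Dll1-high and 0.33 in Dll1-low cells, 1.60 and 2.24 in KO and 0.25 and 2.45 in WT macrophages. Its low value on WT replicate 1 follows from its choice by likeness over these same arrays.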

How the data were processed

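Per the file headers, spot and local background medians are raw intensity values, and the scanner software's own log ratio is a log10 of processed Cy5 over Cy3. The values the authors deposited for the series are log2 ratios against the reference RNA: they followed the scanner's log ratio with a slope of 1.00 to 1.01. Agilent Feature Extraction was version 11.0.1.1 for the CD24+ CD29-high arrays and 12.0.2.2 for the macrophage arrays per the file headers, and 11.0 per the submitters' processing notes. The macrophage files hold median spot signals, so medians were used throughout.

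Here the median signals were background-corrected by normexp with an offset of 50, and loess was applied to the log2 ratios of every array separately, leaving out 3671 control spots and 170 to 500 outlier spots of 62976. Spots were averaged per probe (R 4.3.3 with limma 3.58.1 and, for reading, version 1.17.8 of data.table). Probes detected (Cy5 well above background) on no fewer than 2 arrays of the comparison (for the 2 fractions, on at least 1) were compared, with limma's lmFit and eBayes and Benjamini-Hochberg adjustment over all probes at 0.05. Each fit used only the arrays of its comparison. With 1 array per fraction, Dll1-high minus Dll1-low has no test, and called means at least 2-fold apart. The small number of arrays limits the precision. The code of the fit was checked on simulated data with known differences, and no statement on its power with these arrays is drawn from that.

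The members and lists were chosen with earlier results of these data known. Every member and Dll1 are named; of each list, genes past the threshold (at most 3 in each direction with values) and the extremes of the other comparisons. Probes were named by accession against the RefSeq table (27509 of 55681) or by the array design. Replicate numbers go with slide rows, and the labels do not say that they pair the samples.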

Additional observations from a re-analysis of the deposited data

How the results depend on the processing

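For KO minus WT macrophages, 0 probes passed limma's adjusted threshold in all 14 settings, with 11 to 6043 below an unadjusted p of 0.05, and no member passed. With the replicate block (the slide row), 0 of 34570 passed, 192 had an unadjusted p below 0.05, and the members' adjusted p ran between 0.967 and 0.999. The deviations of same-numbered arrays correlated at 0.576, but with 2 pairs and labels that do not tie the numbers the pairing is not taken as given. Heyl turned to -0.012 with processed scanner signals, as with the authors' deposited values, and Hey1 to 0.53 with median centring and 0.23 with Cy5 alone. Leaving out each array gave -0.53 to 0.90 for Hes1, -1.47 to 0.52 for Hes5, -0.19 to 0.20 for Hes6, -0.39 to -0.24 for Hey1, -0.39 to 0.41 for Heyl, -0.62 to 0.72 for Nrarp and -0.71 to 1.82 for Dtx1. Median centring moved the median of all probes to 0.39, from which its Hey1 value of 0.53 is to be read, against -0.07 with loess.

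For CD24+ CD29-high cells minus macrophages, 3393 calls became 1472 with processed signals, 1476 with the authors' deposited values and 1375 with median centring. Leaving out each array gave 272 (without the Dll1-high array) to 8401 (without WT replicate 1). Hey1 turned to 0.029 with processed signals and with the authors' values and to 0.56 with median centring, which turned Hes6 to 0.25, and Nrarp turned to 0.076 without WT replicate 2. Of the 13 other pathway genes called, 6 passed with processed signals, 7 with median centring and 11 with Cy5 alone. Members' leave-one-out ranges were -0.94 to -0.46 for Hes1, -1.14 to -0.48 for Hes5, -0.57 to -0.44 for Hes6, -0.28 to -0.05 for Hey1, -0.60 to -0.34 for Heyl, -0.37 to 0.08 for Nrarp and -1.80 to -0.96 for Dtx1.

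For Dll1-high minus Dll1-low, 77 probes at least 2-fold apart became 2044 with processed signals, 2045 with the authors' values and 46 with the mean of all probes of a gene (32202 genes). Hes5 moved from 0.20 to -0.31 with Cy5 alone, and Hey2 to -0.68 and Nrarp to 0.32 with processed signals and the authors' values. Hey2 had no test in either fit, and Nrarp had none where detection on every array was required. Where a cause is not given by the setting's own construction, the cause was not tested. Low signal limits Hey2 and Nrarp most, and the 2 WT macrophage arrays, far apart for Hes1, Hes5, Nrarp and Dtx1, limit what KO minus WT can show.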
